A study of Mus musculus with 8 samples.

Results

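The serpins of clades A and B were described in polyadenylated RNA of 4 mouse tissues. A gene was a member when its symbol in the deposited table began with Serpina or Serpinb followed by a number, which held for 57 of 52195 genes, 29 in clade A and 28 in clade B. The libraries came from kidney, lung, liver and small intestine of male C57BL/6J mice (labelled C57BL/6) of 6-10 weeks, with no treatment or engineered allele named, and each tissue had 2 libraries from separate mice. By the study's methods all 4 tissues were taken from each mouse, so libraries of different tissues share animals, but the labels do not say which libraries came from the same mouse, and the tests treated the 8 libraries as independent. Values were fragments scaled by transcript length and library size (FPKM), which put genes of different length on 1 scale. The reads counted on genes, estimated from the values, lay between 9164183 and 21444657 per library, and 3 reads on a gene of 1 kb corresponded to an FPKM between 0.140 and 0.327.

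The tissue labels matched their markers in all 8 libraries. Albumin (Alb) was at 29371 FPKM or more in liver and 69.0 or less elsewhere, and the surfactant gene Sftpc was at 11569 or more in lung and 16.4 or less elsewhere. Slc34a1 of the proximal tubule was at 655 or more in kidney and 2.85 or less elsewhere, and Fabp2 of enterocytes was at 4472 or more in small intestine and 55.1 or less elsewhere. The small intestine libraries also held pancreatic acinar RNA, with a summed FPKM over 5 markers of 2148 and 963 against 4.23 or less in the other libraries.

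Serpins fold around an exposed reactive centre loop that acts as bait. A protease that cuts the loop becomes trapped in a covalent complex with the serpin, and the residues of the loop decide which proteases are caught. Clade A serpins are mostly secreted into blood, chiefly by hepatocytes, and include alpha-1-antitrypsin (the Serpina1 genes), which guards lung tissue against neutrophil elastase, relatives of antichymotrypsin (the Serpina3 genes) and hormone carriers that trap no protease. Clade B serpins lack a classical signal peptide, act mainly inside the cell and protect leukocytes and epithelia from proteases of granules and lysosomes. In the mouse both clades hold arrays of tandem copies. Of the clade A members 28 lay on chromosome 12 and Serpina7 lay on chromosome X, while 12 clade B members lay on chromosome 1 and 16 on chromosome 13.

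The Serpina1 copies differed from each other far more often around the bait than over the rest of their coding sequence. Over 1242 coding bases, Serpina1a to Serpina1e were not all the same at 86 positions (6.92%), and 19 of these fell within 90 bases that begin at the hinge of the reactive centre loop (21.1% of that stretch). The median over all stretches of 90 bases was 5 positions, and the highest was 20, in a stretch that overlaps the stretch from the hinge. These stretches are shown because they tell the copies apart. They lie in the last coding exon on the minus strand (GRCm38, GENCODE M21) at chr12:103853741-103853830 for Serpina1a (exon 6 of 6), chr12:103728308-103728397 for Serpina1b, chr12:103895078-103895167 for Serpina1c, chr12:103763746-103763835 for Serpina1d and chr12:103947084-103947173 for Serpina1e (each exon 5 of 5). Capitals mark the positions at which the 5 copies are not all the same:
Serpina1a: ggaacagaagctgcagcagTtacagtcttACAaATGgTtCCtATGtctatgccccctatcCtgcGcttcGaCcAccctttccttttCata
Serpina1b: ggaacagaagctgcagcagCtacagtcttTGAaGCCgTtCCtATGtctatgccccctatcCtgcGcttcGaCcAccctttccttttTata
Serpina1c: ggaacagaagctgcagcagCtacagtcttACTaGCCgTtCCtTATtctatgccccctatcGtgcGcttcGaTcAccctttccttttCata
Serpina1d: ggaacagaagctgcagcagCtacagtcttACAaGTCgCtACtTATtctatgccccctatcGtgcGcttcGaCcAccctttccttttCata
Serpina1e: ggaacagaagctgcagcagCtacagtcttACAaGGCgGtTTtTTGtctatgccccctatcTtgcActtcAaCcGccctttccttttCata

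The identities that follow count bases without a partner in the alignment as different. The coding sequences of Serpina1a to Serpina1e were 91.5% to 96.7% identical over their 10 pairs. Pairs with Serpina1a were at 91.5% to 93.3% and the other pairs at 96.3% to 96.7%. The annotated coding sequence of Serpina1a has 1311 bases, against 1242 for Serpina1b to Serpina1e, which lowers its values. Serpina1f, a neighbour with the same family name, was 52.7% to 55.9% identical to them. Serpina3k and Serpina3m were 90.8% identical to each other. The same region is given for 4 further members to set the hinge beside the bait after it. The hinge was looked for as glycine or a charged residue, then threonine, serine or asparagine, then glutamate, then alanine or glycine within the last 80 codons, and was found in 35 of 51 members with a coding sequence, 15 of 24 in clade A and 20 of 27 in clade B. It was not found in Serpina1f, Serpina3f, Serpina3g, Serpina6, Serpina7 or Serpina12 among others, and the 4 shown are members that hold it. Capitals mark the first 4 codons of the hinge. Each stretch lies in the last coding exon, for Serpina3k at chr12:104345269-104345343 and for Serpina3m at chr12:104393769-104393843 on the plus strand, for Serpinb1a at chr13:32842896-32842970 on the minus strand, and for Serpinb9 at chr13:33015699-33015773 on the plus strand:
Serpina3k: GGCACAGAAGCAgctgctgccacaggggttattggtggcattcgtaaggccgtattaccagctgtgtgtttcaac
Serpina3m: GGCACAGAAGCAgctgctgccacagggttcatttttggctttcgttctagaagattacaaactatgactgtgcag
Serpinb1a: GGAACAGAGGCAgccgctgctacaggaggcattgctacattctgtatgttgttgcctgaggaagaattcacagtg
Serpinb9: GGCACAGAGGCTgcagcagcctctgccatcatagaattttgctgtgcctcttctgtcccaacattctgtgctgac

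How reads that fit several copies were counted is not given in the sources used here, so the value of a single copy carries that uncertainty. Of the 31-base words in its transcripts, Serpina1c shared 82.2% with other genes, Serpina1a 65.2%, Serpina1d 64.7%, Serpina1e 54.2% and Serpina1b 44.7%, whereas Serpina1f shared 0.911%. In clade B the shares were 10.1% for Serpinb1a, 6.83% for Serpinb6b, 4.91% for Serpinb9 and 2.63% for Serpinb6a. The annotated span of Serpina1b runs across Serpina1d, and that of Serpina3m across Serpina3k. For these reasons the Serpina1 and Serpina3 copies are also given as sums.

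Of the 57 members, 25 reached an FPKM of 1 in at least 2 libraries and were tested, 20 of clade A and 5 of clade B. A further 16 were listed at 0 in all 8 libraries. These were Serpina3d-ps, Serpina3j, Serpina3l-ps and Serpina16 in clade A, and Serpinb1-ps1, Serpinb3a, Serpinb3b, Serpinb3d, Serpinb6d, Serpinb6e, Serpinb9c, Serpinb9d, Serpinb9e, Serpinb9f, Serpinb9g and Serpinb13 in clade B. The other 16 had reads but stayed below the filter, 5 of clade A with an FPKM of at most 0.977 and 11 of clade B with an FPKM of at most 0.697.

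By limma on log2(FPKM + 1), a tissue was set against the average of the remaining 3, and a gene was called at an adjusted p below 0.05 and an absolute log2 difference above 1. On this scale the fold of a low gene is understated. A gene that passed the filter through 1 tissue had to differ between tissues, so the counts of members describe them and are read beside the share of all 16328 tested genes that was called.

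**Figure D1:**
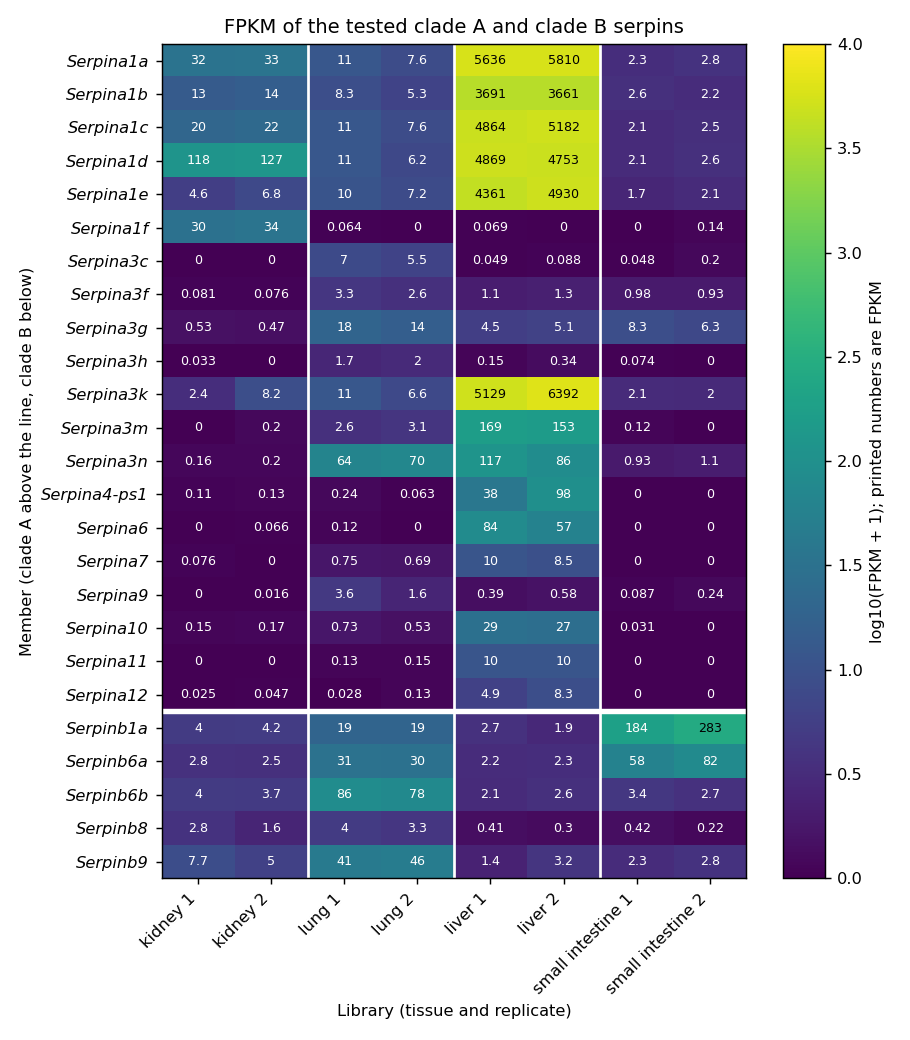
FPKM of the 25 tested members (rows) in the 8 libraries (columns), with the colour on a log10(FPKM + 1) scale and the FPKM printed in each cell. Of the 20 clade A members, 14 are highest in the liver columns, where Serpina3k reaches 6392 FPKM, while Serpina1f is highest in kidney and Serpina3c, Serpina3f, Serpina3g, Serpina3h and Serpina9 in lung. The 5 clade B members are highest in lung or small intestine, where Serpinb1a reaches 283 FPKM.

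The 2 clades had their highest summed levels in different tissues. The summed FPKM of clade A was 29019 and 31184 in the liver libraries, 222 and 247 in kidney, 166 and 143 in lung, and 23.5 and 23.4 in small intestine. Clade A made up 4.65% and 4.99% of all FPKM in the liver libraries. The summed FPKM of clade B was 249 and 371 in small intestine, 184 and 179 in lung, 21.3 and 17.1 in kidney, and 9.08 and 10.5 in liver. Within each clade the values of different tissues did not overlap, and the order was liver, kidney, lung, small intestine for clade A and small intestine, lung, kidney, liver for clade B. The ratio of clade A to clade B was 3196 and 2965 in liver, 10.4 and 14.4 in kidney, 0.905 and 0.800 in lung, and 0.0944 and 0.0630 in small intestine. In bulk tissue, fewer cells of a type and less RNA per cell cannot be told apart, here or in any result that follows.

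**Figure D2:**
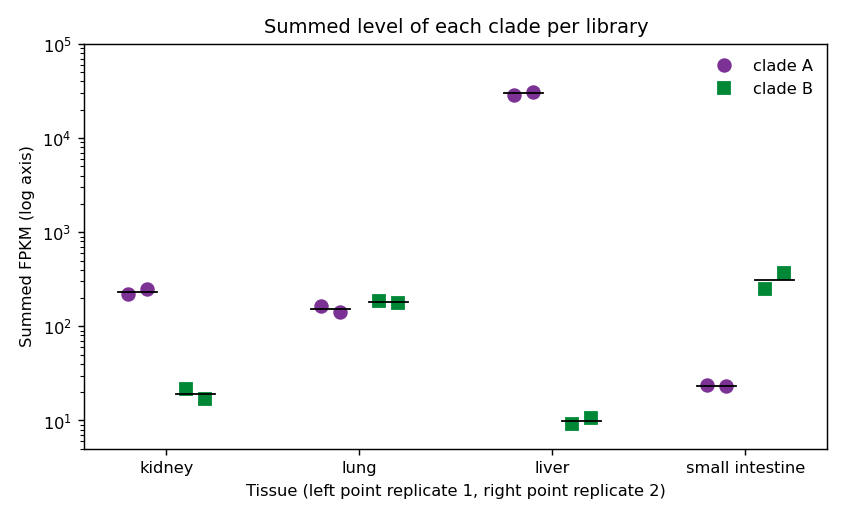
Summed FPKM (log axis) of the 29 clade A and the 28 clade B members in each library by tissue, with a point per library and a line at the mean of the 2 libraries. Clade A ranges from 23.4 in small intestine to 31184 in liver, and clade B from 9.08 in liver to 371 in small intestine.

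In liver, 14 of the 20 tested clade A members were called higher and 1 was called lower, where 6.56% of all tested genes were called higher and 32.7% lower. The median log2 difference was 4.37 over the tested clade A members and -0.72 over all tested genes. The members called higher were the 5 Serpina1 copies, Serpina3k, Serpina3m, Serpina3n, Serpina4-ps1, Serpina6, Serpina7, Serpina10, Serpina11 and Serpina12, and each of them had both liver libraries above the other 6, as 5.76% of all tested genes did. Against every other tissue singly, 13 of the 14 were called higher and Serpina3n was not. The member called lower was Serpina1f, which was not called lower than in each other tissue singly and did not meet the filter without either kidney library. Without either liver library, Serpina4-ps1, Serpina6, Serpina7, Serpina10, Serpina11 and Serpina12 no longer met the filter on low values, and the other 8 were called higher.

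The 5 Serpina1 copies stood close together in liver. Serpina1a, the highest on average, was at 5636 and 5810 FPKM. Serpina1c was at 4864 and 5182, Serpina1d at 4869 and 4753, and Serpina1e at 4361 and 4930, and these 3 overlapped. Serpina1b, at 3691 and 3661, lay below the other 4 copies in both libraries. Their log2 differences against the other tissues lay between 8.26 ± 0.19 (SE) for Serpina1d and 9.67 ± 0.18 for Serpina1e, each with a limma adjusted p of 7.42e-08 or less. As a sum the copies reached 23421 and 24336 FPKM in liver, 188 and 204 in kidney, 52.1 and 33.9 in lung, and 10.8 and 12.2 in small intestine.

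Serpina3k, known as a kallikrein-binding protein of plasma, was at 5129 and 6392 FPKM in liver, the level of the Serpina1 copies. It made up 94.6% and 96.3% of the summed Serpina3 copies there, which came to 5421 and 6638 FPKM. Its close relative Serpina3m was at 169 and 153 FPKM in liver and at 3.14 or less elsewhere. The log2 difference in liver was 10.03 ± 0.36 (SE) for Serpina3k (limma adjusted p = 5.07e-07) and 6.62 ± 0.15 for Serpina3m (limma adjusted p = 7.33e-08).

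A further 6 members belonged to the liver-high set and are named, after their values were seen, so that every tested member is accounted for. Corticosteroid-binding globulin (Serpina6), the carrier of glucocorticoids, was at 84.3 and 57.4 FPKM in liver and at 0.116 or less elsewhere. Thyroxine-binding globulin (Serpina7) was at 10.3 and 8.55 FPKM in liver and at 0.753 or less elsewhere. Serpina10, which inhibits coagulation factor Xa together with protein Z, was at 28.6 and 26.9 FPKM in liver and at 0.732 or less elsewhere. Serpina11 was at 10.3 and 10.4 FPKM, and 37.2% of its 31-base words also occur in the gene model Gm28577. Serpina12 (vaspin) was at 4.94 and 8.27 FPKM. The pseudogene Serpina4-ps1 was at 37.98 and 97.8 FPKM, the widest relative gap between the liver libraries among the 14.

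**Figure D3:**
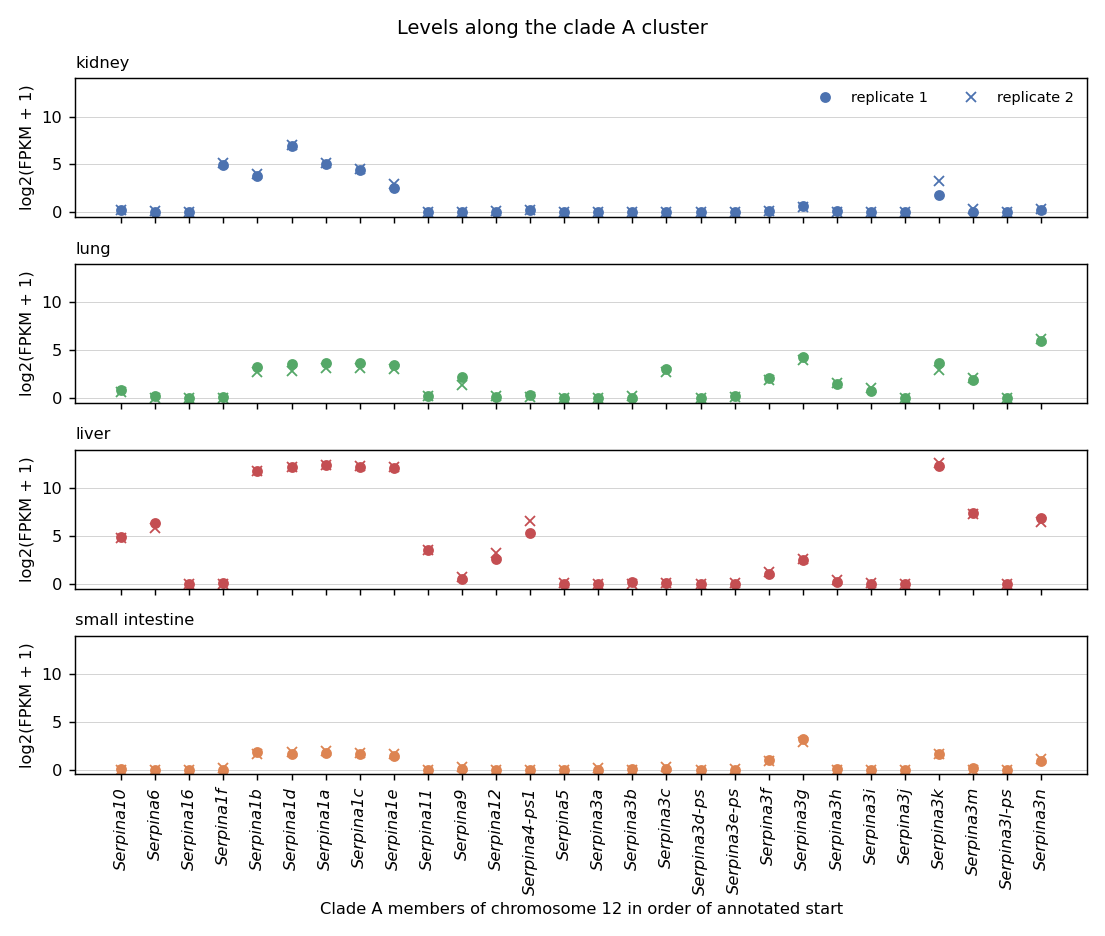
log2(FPKM + 1) of the 28 clade A members of chromosome 12 in order of annotated start, 1 panel per tissue and 1 symbol per replicate. In liver Serpina1a to Serpina1e and Serpina3k stand near 12, with Serpina16, Serpina1f and Serpina3j at or near 0, and in kidney Serpina1f and Serpina1d stand above their neighbours.

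In kidney, 2 of the 20 tested clade A members were called higher and 14 lower, where 8.65% of all tested genes were called higher and 16.1% lower. The lower calls were taken against a mean that holds the liver, and against each other tissue singly 1 member, Serpina3g, was called lower. Without either liver library 9 were called lower. Both members called higher were Serpina1 genes. Serpina1f was at 30.3 and 33.6 FPKM in kidney and at 0.139 or less in every other library, where it had at most 5 reads. Its log2 difference was 4.98 ± 0.13 (SE, limma adjusted p = 5.60e-07), and it was also called higher in kidney than in each other tissue singly. Without either kidney library it no longer met the filter on low values. In liver, where its 5 neighbours were near 12 on the log2 scale, Serpina1f had 2 reads and 0 reads.

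Serpina1d was the other kidney call. It was at 118 and 127 FPKM in kidney, 11.02 and 6.23 in lung, and 2.07 and 2.60 in small intestine, beside 4869 and 4753 in liver. The kidney libraries lay below liver and above the other tissues, and the log2 difference of 1.22 ± 0.19 (SE, limma adjusted p = 0.00111) was taken against a mean that holds the liver. The other 4 copies were at 32.3 and 33.4 FPKM (Serpina1a), 19.9 and 21.9 (Serpina1c), 12.96 and 14.4 (Serpina1b), and 4.59 and 6.75 (Serpina1e) in kidney. None of these overlapped another. With the 5 copies summed to 1 row, the kidney log2 difference was -0.25 ± 0.17 (SE, limma adjusted p = 0.228) and was not called.

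The make-up of the Serpina1 sum therefore differed in kidney. Serpina1d took 62.8% and 62.5% of the sum in the kidney libraries, and between 18.4% and 21.2% in the other 6. Serpina1e took 2.44% and 3.31% in kidney. In liver the shares lay closer together, with 24.1% and 23.9% for Serpina1a, 15.8% and 15.04% for Serpina1b, and 20.8% and 19.5% for Serpina1d. How shared reads were placed bears on these shares, and its part was not tested.

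**Figure D4:**
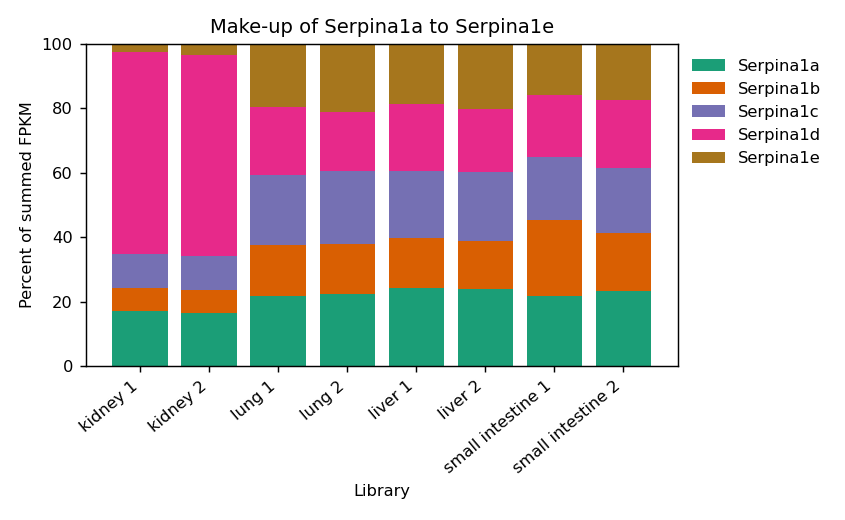
Percent of the summed FPKM of Serpina1a to Serpina1e taken by each copy in each of the 8 libraries. Serpina1d takes 62.8% and 62.5% in the kidney libraries and between 18.4% and 21.2% in the lung, liver and small intestine libraries.

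The sequence just before the start of these genes is shown for a copy of the liver set, for the copy with the kidney share and for the gene of kidney. The 90 bases before the RefSeq start (GRCm38.p6, minus strand of chromosome 12) lie at chr12:103863620-103863709 for Serpina1a, chr12:103773634-103773723 for Serpina1d and chr12:103695530-103695619 for Serpina1f, and capitals mark GTTAAT, letters of the site bound by the hepatocyte and tubule factor HNF1, looked for on both strands:
Serpina1a: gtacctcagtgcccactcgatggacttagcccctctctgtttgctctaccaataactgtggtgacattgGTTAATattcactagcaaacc
Serpina1d: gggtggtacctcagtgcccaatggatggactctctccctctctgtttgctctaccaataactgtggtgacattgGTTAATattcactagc
Serpina1f: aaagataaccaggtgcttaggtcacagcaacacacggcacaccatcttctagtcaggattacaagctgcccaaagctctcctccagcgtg

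GTTAAT stood within 250 bases before to 50 bases after the start in all 5 copies Serpina1a to Serpina1e and not in Serpina1f. Its first base was at position -21 from the start in Serpina1a, -26 in Serpina1b, -27 in Serpina1c, -16 in Serpina1d and -78 in Serpina1e. It was present in 7 of the 19 clade A members with a promoter sequence, in 3 of 25 clade B members and in 8.24% of 27025 genes. Of these 7 clade A members, 5 are the copies Serpina1a to Serpina1e. No promoter sequence was given for Serpina3k, Serpina3m, Serpina6 or Serpina10. TATAAA, searched in the same way, was present in 5 of the 19 clade A members, 9 of 25 clade B members and 15.7% of genes, and in none of Serpina1a to Serpina1e. The part of GTTAAT in the kidney level of Serpina1d was not tested.

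In lung, 6 of the 20 tested clade A members were called higher and 9 lower, where 40.7% of all tested genes were called higher and 8.26% lower. The median log2 difference over all tested genes was 0.82 in lung, so that a gene at the median already stood above the other tissues. The 6 were Serpina3c, Serpina3f, Serpina3g, Serpina3h, Serpina3n and Serpina9. With the libraries scaled by the median of ratios, the median of all genes was -0.02, and 3 of these stayed called, namely Serpina3c, Serpina3g and Serpina3n. Under that scaling 13 clade A members were called lower in lung. Against each other tissue singly, Serpina3c, Serpina3g, Serpina3h and Serpina9 were called higher and 0 of the 9 were called lower. Without either lung library, Serpina3c, Serpina3h and Serpina9 no longer met the filter on low values and 3 members were called higher.

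Lung and liver shared Serpina3n, a secreted inhibitor of granzyme B. It was at 63.6 and 70.4 FPKM in lung, 117 and 85.7 in liver, 0.158 and 0.196 in kidney, and 0.932 and 1.11 in small intestine. Lung and liver did not overlap each other or the other tissues. With the libraries scaled by the median of ratios the gap was wider, at 35.0 and 37.1 in lung and 212 and 137 in liver. Its log2 difference was 3.45 ± 0.15 (SE) in lung (limma adjusted p = 1.12e-06) and 4.21 ± 0.15 in liver (limma adjusted p = 4.88e-07). It made up 58.6% and 66.5% of the Serpina3 sum in lung, which came to 108 and 106 FPKM. With the Serpina3 copies summed to 1 row, the lung log2 difference was 0.45 ± 0.30 (SE, limma adjusted p = 0.188) and was not called.

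The other lung members of the Serpina3 array were lower. Serpina3g, an inhibitor of lysosomal cysteine cathepsins that acts inside leukocytes although it belongs to clade A, was at 18.1 and 14.5 FPKM in lung, 8.27 and 6.33 in small intestine, 4.46 and 5.11 in liver, and 0.532 and 0.467 in kidney. The 4 tissues did not overlap on this scale, but with the libraries scaled by the median of ratios lung, at 9.99 and 7.63, overlapped liver, at 8.07 and 8.14, and liver passed small intestine. Its log2 difference in lung was 2.05 ± 0.16 (SE, limma adjusted p = 1.50e-05) and fell to 1.02 under that scaling, while in kidney it was -2.64 ± 0.16 (limma adjusted p = 1.17e-05). Serpina3c was at 6.99 and 5.45 FPKM in lung and at 0.200 or less elsewhere, with 0 reads in both kidney libraries. Serpina3f, at 3.26 and 2.64 FPKM, and the transcribed pseudogene Serpina3h, at 1.71 and 2.02, were highest in lung as well. With the libraries scaled by the median of ratios, Serpina3f was highest in liver instead, at 1.98 and 2.02 against 1.80 and 1.39 in lung. Outside the array, Serpina9, known from germinal centre B cells, was at 3.60 and 1.56 FPKM in lung and at 0.580 or less elsewhere, and its lung and liver libraries overlapped under the same scaling.

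Of the liver-high members, the 5 Serpina1 copies and Serpina3k were at percentages of their liver level in lung close to those of hepatocyte markers. All percentages here are of FPKM as deposited, without the scaling by the median of ratios. In lung the mean FPKM of the 5 Serpina1 copies was between 0.165% and 0.189% of that in liver, and Serpina3k was at 0.155%. The 5 hepatocyte markers were between 0.162% (Apoh) and 0.214% (Apoa2) in lung, with Alb at 0.169%. In small intestine the 5 copies were between 0.0414% and 0.0647% and Serpina3k at 0.0360%, with Alb at 0.0371%, Apoa2 at 0.0640%, Apoh at 0.0699% and Ttr at 0.133%, while Cps1, which enterocytes make themselves, was at 16.3%. The library lung 1 was above lung 2 for Alb, at 69.0 against 39.0 FPKM, and for Serpina3k, at 11.3 against 6.61. The part of hepatocyte RNA in these values was not tested. In kidney, Alb was at 0.0879% of liver and Serpina3k at 0.0914%, with both higher in kidney 2, at 40.7 against 15.5 FPKM for Alb and 8.17 against 2.36 for Serpina3k. The other hepatocyte markers were between 0.108% (Cps1) and 1.95% (Ttr) in kidney. Serpina1d was at 2.55% there, Serpina1a at 0.574%, Serpina10 at 0.562%, Serpina12 at 0.547%, Serpina1c at 0.416%, Serpina7 at 0.403%, Serpina1b at 0.373%, Serpina4-ps1 at 0.179%, Serpina3n at 0.175% and Serpina1e at 0.122%, all above Alb, while Serpina3m, Serpina6 and Serpina11 were below it. In kidney 1 and kidney 2, Serpina3n had 7 and 7 reads, Serpina4-ps1 3 and 3, Serpina12 2 and 3, and Serpina7 4 and 0. Serpina3m had 0 and 6, Serpina6 0 and 2, and Serpina11 0 and 0. The order of these members beside Alb thus rests on few reads. Of the 14, Serpina1d was the member above all 5 markers. A further 6 liver-high members lay between 1.20% and 66.2% in lung, above all 5 markers, with Serpina3n at 66.2% of its liver level, Serpina7 at 7.64%, Serpina10 at 2.27%, Serpina3m at 1.78%, Serpina11 at 1.31% and Serpina12 at 1.20%. Serpina3m had 44 reads in lung 1 and 67 in lung 2, and Serpina11 and Serpina12 had at most 6 in either. The remaining Serpina4-ps1, at 0.222%, and Serpina6, at 0.0821%, had at most 3 reads in either lung library. Serpina3n was also at 1.01% in small intestine, above Alb.

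**Figure D5:**
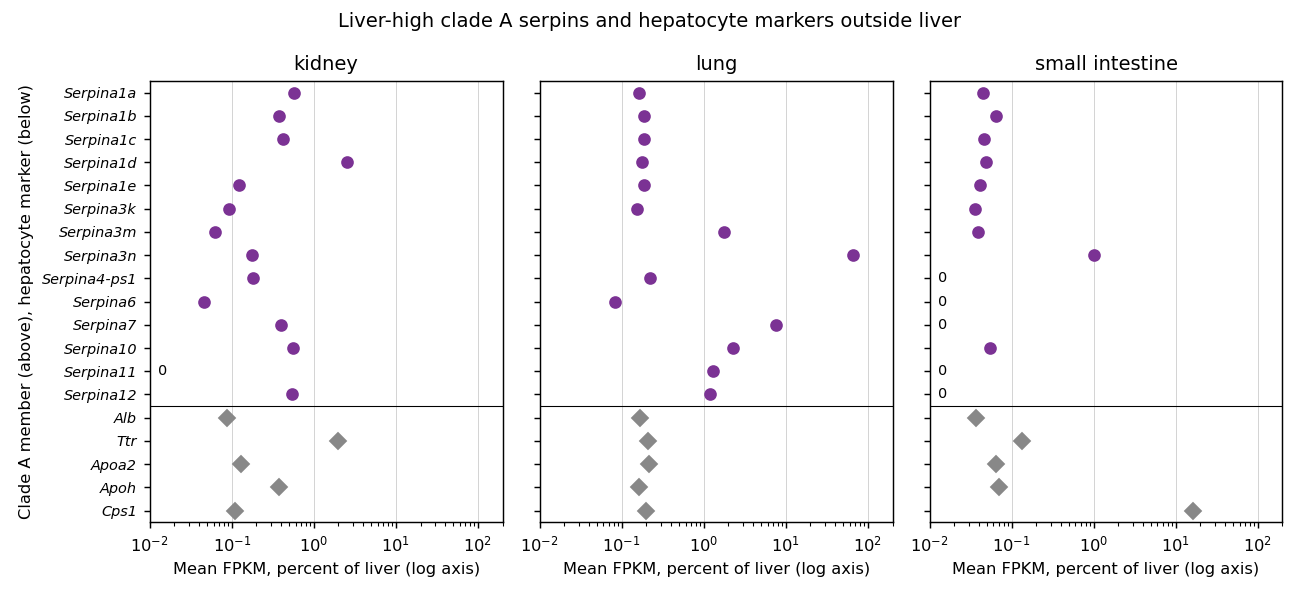
Mean FPKM in kidney, lung and small intestine as a percentage of the mean in liver (log axis) for the 14 clade A members called higher in liver (circles) and 5 hepatocyte markers (diamonds), with 0 written where no read was listed. In lung the 5 Serpina1 copies and Serpina3k lie between 0.155% and 0.189%, beside Alb at 0.169%, and in kidney Serpina1d lies at 2.55%.

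In small intestine, none of the 20 tested clade A members were called higher by limma and 15 were called lower, where 13.7% of all tested genes were called higher and 11.3% lower. The highest there was Serpina3g, at 8.27 and 6.33 FPKM, with a log2 difference of 0.64 ± 0.16 (SE, limma adjusted p = 0.0114) that stayed under the threshold of 1. It made up 65.6% and 58.9% of the Serpina3 sum. The Serpina1 copies were between 1.72 and 2.84 FPKM, and all 5, but none of the other 10, were called lower in small intestine than in each other tissue singly. Without either liver library 9 members were called lower. Serpina4-ps1, Serpina6, Serpina7, Serpina11 and Serpina12 were listed at 0 in both libraries.

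Clade B was read from few genes, with 5 members above the filter. In small intestine 2 of the 5 were called higher and 3 lower, where 13.7% of all tested genes were called higher and 11.3% lower, and 0 were called lower than in each other tissue singly. The 2 were Serpinb1a, an inhibitor of the neutrophil proteases elastase, proteinase 3 and cathepsin G, and Serpinb6a, an inhibitor of cathepsin G. Serpinb1a was at 184 and 283 FPKM in small intestine, 18.7 and 18.6 in lung, 3.99 and 4.21 in kidney, and 2.75 and 1.89 in liver. The tissues did not overlap, except kidney and liver with the libraries scaled by the median of ratios, and the log2 difference in small intestine was 5.05 ± 0.19 (SE, limma adjusted p = 7.09e-07). Serpinb1a held 73.9% and 76.2% of the clade B sum there. Serpinb6a was at 58.4 and 81.9 FPKM in small intestine, 31.1 and 29.98 in lung, 2.76 and 2.53 in kidney, and 2.22 and 2.31 in liver. Its log2 difference in small intestine was 3.28 ± 0.15 (limma adjusted p = 2.05e-06). Both were also called higher in small intestine than in each other tissue singly.

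Markers of neutrophils, the cells for which Serpinb1a is best known, were not highest where Serpinb1a was. The summed FPKM of 6 neutrophil markers was 3.28 and 1.91 in small intestine, 65.4 and 399 in lung, and 1.97 or less in the other libraries. The defining marker Ly6g was at 0 in both small intestine libraries, but also in lung 1, and at 1.62 FPKM in lung 2. Retnlg was at 2.64 and 1.45 FPKM in small intestine and at 1.85 and 26.6 in lung. In lung the marker sum differed between the libraries by far more than Serpinb1a did, at 18.7 and 18.6 FPKM. Serpinb1a and Serpinb6a were both higher in the library small intestine 2, while the pancreatic acinar markers were lower there. The 4 enterocyte markers did not all move alike. Fabp2 was at 4472 and 6134 FPKM, Vil1 at 381 and 523, Lct at 127 and 131, and Apoa4 at 601 and 466. The part of these cell types in the clade B levels was not tested.

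In lung 4 of the 5 tested clade B members were called higher and none were called lower by limma, where 40.7% of all tested genes were called higher and 8.26% lower. Serpinb6b was at 85.8 and 78.3 FPKM in lung and between 2.12 and 3.999 elsewhere, with a log2 difference of 4.36 ± 0.14 (SE, limma adjusted p = 3.91e-07). It is a close relative of Serpinb6a, with 81.0% identical coding sequence. That share counts bases without a partner as different, and the coding sequences have 1134 bases for Serpinb6b and 1200 for Serpinb6a. Serpinb9, which shields cells from granzyme B, was at 41.5 and 46.3 FPKM in lung, 7.66 and 4.96 in kidney, 2.26 and 2.81 in small intestine, and 1.44 and 3.22 in liver. Lung stood apart from the other tissues, while liver and small intestine overlapped. Its log2 difference in lung was 3.37 ± 0.24 (limma adjusted p = 9.80e-06). Serpinb6a was called with 1.74 ± 0.15, although lung lay below small intestine. Serpinb8, an inhibitor of furin that is named to account for every tested member, was at 4.02 and 3.32 FPKM in lung and 2.81 and 1.61 in kidney, with a log2 difference of 1.39 ± 0.17. Its highest tissue turned to kidney with the libraries scaled by the median of ratios, at 2.73 and 2.25 against 2.21 and 1.75 in lung. With the libraries scaled by the median of ratios 2 of the 4 stayed called, namely Serpinb6b and Serpinb9.

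The relatives Serpinb6a and Serpinb6b had different highest tissues. As a sum the 5 Serpinb6 genes were at 117 and 108 FPKM in lung, 61.8 and 84.7 in small intestine, 6.76 and 6.26 in kidney, and 4.34 and 4.88 in liver. With the libraries scaled by the median of ratios this order did not hold, since lung, at 64.4 and 57.1, and small intestine, at 55.9 and 80.8, overlapped and small intestine had the higher mean. In lung Serpinb6b held the larger part, and in small intestine it was at 3.40 and 2.73 FPKM. The summed FPKM of 5 cytotoxic lymphocyte markers, which include the granzymes, was 141 and 123 in small intestine and 34.0 and 46.8 in lung, so that Serpinb9 and this sum had different highest tissues. Within the list, Prf1 was at 3.33 and 3.77 FPKM in lung and 0.537 and 0.752 in small intestine. Nkg7 was at 12.3 and 16.7 in lung and 11.6 and 10.2 in small intestine, so both were highest in lung, like Serpinb9. Gzma, Gzmb and Cd8a were highest in small intestine. Gzmb itself was at 28.0 and 23.4 FPKM in small intestine and 1.93 and 3.08 in lung.

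In kidney none of the 5 tested clade B members were called higher by limma and 3 were called lower, Serpinb1a (-2.27 ± 0.19), Serpinb6a (-2.41 ± 0.15) and Serpinb6b (-1.10 ± 0.14), as log2 differences with SE. Of all tested genes 8.65% were called higher and 16.1% lower in kidney, and 6.56% higher and 32.7% lower in liver. In liver none were called higher by limma and 4 were called lower, with Serpinb1a at -3.11 ± 0.19, Serpinb6a at -2.62 ± 0.15, Serpinb6b at -1.82 ± 0.14 and Serpinb9 at -1.70 ± 0.24. The median over all tested genes was -0.72 in liver and -0.34 in kidney. With the median of ratios as scaling, 2 members were called lower in each of these tissues, Serpinb1a and Serpinb6a. Against each other tissue singly, 0 clade B members were called lower in kidney and 0 in liver. Serpinb9 was the highest clade B member in kidney, at 7.66 and 4.96 FPKM.

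The 11 clade B members with reads below the filter had at most 23 reads in any library. Markers of squamous or basal epithelium, where several clade B serpins are known, summed to 1.78 FPKM or less in every library over 7 genes. Serpinb5 (maspin) had 7 and 17 reads in small intestine, 4 and 2 in kidney, 2 and 4 in lung and none listed in liver. Serpinb12 had 17 and 7 reads in lung, and Serpinb10 had 15 and 23 there. Serpinb2, plasminogen activator inhibitor 2, had 7 and 5 reads in lung and 3 and 4 in small intestine. Serpinb1b had 7 and 11 reads in lung and Serpinb9b had 6 and 8. Serpinb1c, Serpinb3c, Serpinb6c, Serpinb7 and Serpinb11 had at most 4 reads in any library.

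In clade A, Serpina3i had 15 and 27 reads in lung and at most 2 in any other library. Serpina3a, Serpina3b, Serpina3e-ps and Serpina5, the protein C inhibitor, had at most 4 reads in any library. Of the 16 members with reads below the filter, the highest FPKM lay in lung for Serpina3i at 0.977 and Serpinb12 at 0.697.

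Of 12 listed serpins of other clades, 10 were tested. In liver 6 were called higher and 1 lower, in lung 4 higher and 4 lower, in kidney 1 higher and 4 lower, and in small intestine 1 higher and 7 lower. The shares of all tested genes called higher and lower were 6.56% and 32.7% in liver, 40.7% and 8.26% in lung, 8.65% and 16.1% in kidney, and 13.7% and 11.3% in small intestine, so that 4 of 10 higher in lung, 1 of 10 in kidney and 1 of 10 in small intestine were near the shares of all genes. Antithrombin (Serpinc1) was at 185 and 169 FPKM in liver and at 0.479 or less elsewhere. The plasmin inhibitor Serpinf2 was at 236 and 229 FPKM in liver and at 84.1 and 83.1 in kidney, the kidney call. The collagen chaperone Serpinh1 was at 153 and 120 FPKM in lung and at 5.14 and 3.73 in liver.

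Of 26 listed proteases that serpins of these clades are known to meet, 20 were tested. In liver 7 were called higher and 10 lower, in lung 7 and 7, in kidney 7 and 9, and in small intestine 6 and 10. The shares of all tested genes called higher and lower are those given for the serpins of other clades, and 7 of the 8 counts were above the share of their tissue, the exception being 7 of 20 higher in lung. The neutrophil and mast cell proteases Elane, Prtn3, Ctsg, Cma1, Mcpt4 and Tpsb2 stayed below the filter. Elane, the main target of alpha-1-antitrypsin, was at 0.208 and 1.80 FPKM in lung and at 0 elsewhere. Cathepsin S (Ctss), a lysosomal protease of antigen-presenting cells, was at 186 and 165 FPKM in lung, 114 and 111 in small intestine, 23.1 and 26.6 in liver, and 7.14 and 7.91 in kidney.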

How the data were processed

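Bulk RNA sequencing libraries of kidney, lung, liver and small intestine (2 each, 8 in all) were grouped by their labels. The authors selected reads by sample index with bbduk, mapped them with STAR 2.5.3a at default parameters to the Ensembl release 75 mouse genome (GRCm38) and deposited FPKM values from DESeq2 (its fpkm function). The counting program and its use of strand are not given in the sources used here, and overlapping genes may share reads.

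Symbols were matched to GENCODE M21, of which 99.3% matched a single gene. Reads were recovered from the steps of low values (94.6% to 96.1% whole within 0.02 reads per library), which gave the depth. Genes that reached an FPKM of 1 in 2 libraries were fitted as log2(FPKM + 1) with limma 3.58.1 (R 4.3.3, eBayes with a trend) over all 8 libraries, as the contrast of a tissue with the average of the remaining 3, and p-values were adjusted by Benjamini-Hochberg over 16328 genes. Errors of differences are standard errors. In simulated libraries 176 of 200 genes changed 4-fold were recovered, none in the wrong direction, with 32 false calls among 14728 genes tested. The simulation gave unchanged genes the same mean in all tissues. It lacks the shift of the median seen in the real data, so its false calls do not measure those of the real contrasts. Python 3.11.15 was used for sums and sequences. Promoters came from RefSeq (GRCm38.p6) and coding sequences from GENCODE M21.

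Named members were, per tissue and clade, the 3 with the highest mean FPKM, up to 3 called higher and 2 called lower with the largest difference, and all Serpina1 and Serpina3 copies. Members named beyond this rule are Serpina4-ps1, Serpina6, Serpina7, Serpina9, Serpina10, Serpina11, Serpina12, Serpinb8 and those with few reads. The members and lists were chosen with earlier results of these data known. Alternatives changed the pseudocount, filter, scaling, trend, replicate block, contrast, the summing of copies and the libraries included.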

Additional observations from a re-analysis of the deposited data

How the results depend on the processing

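Each tissue had 2 libraries, so that differences rest on few animals, and members with under 3 reads were not detectable at this depth. Of 881 alternative values for 55 calls of named members, 835 kept their direction and call, 24 kept the direction and lost the call, and 22 had the other sign. All 22 came from setting a tissue against the other 3 singly, with the difference taken from the highest of them for a gene above their mean and from the lowest for a gene below it, which by construction turns the sign of a gene of middle level. Their log2 differences were 1.52 for Serpina1a, 1.18 for Serpina1b, 1.65 for Serpina1c, 1.49 for Serpina1d, 1.71 for Serpina1e, 1.65 for Serpina3k, -0.57 for Serpina3n and -1.15 for Serpinb6a in lung. In kidney they were 2.12 for Serpina1b, 2.73 for Serpina1c, -5.28 for Serpina1d, 1.17 for Serpina1e, 0.85 for Serpina3k, 0.048 for Serpina3m, 0.63 for Serpinb1a, 0.16 for Serpinb6a and 0.54 for Serpinb6b. In small intestine they were 0.049 for Serpina1f, 0.78 for Serpina3n, 0.28 for Serpinb6b and 0.14 for Serpinb9, and in liver 0.0028 for Serpina1f.

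Counts of members that moved by over 1.5 times are given here. With a call against all of the other 3 tissues singly required, clade A had 1 member higher and 1 lower in kidney, 0 lower in lung, 0 lower in liver and 5 lower in small intestine, and clade B had 0 lower in kidney, 2 higher in lung, 0 lower in liver and 0 lower in small intestine. With copies summed, clade A had by construction fewer rows, with 1 higher and 6 lower in kidney, 1 higher and 4 lower in lung, 8 higher in liver and 9 lower in small intestine. With a pseudocount of 0.1, clade B had 1 higher in kidney (Serpinb8), and clade A had 2 lower in liver and 1 higher in small intestine (Serpina3g). With a filter of FPKM 5, 3 clade A members were higher in lung. Median-of-ratios scaling left 3 clade A members and 2 clade B members higher in lung and 2 clade B members lower in liver. Quantile normalization left 3 clade A members higher and 14 lower in lung. The cause was not tested for the pseudocount and the scalings. Median-of-ratios scaling moved the summed FPKM of clade A to 51119 in liver, 279 in kidney, 83.4 in lung and 21.8 in small intestine, and that of clade B to 22.3 in kidney, 97.6 in lung and 16.6 in liver, and each clade kept its highest tissue. The same scaling left the highest tissue of 23 of the 25 tested members as it was, and turned that of Serpina3f from lung to liver and that of Serpinb8 from lung to kidney.

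Leaving out 1 library at a time gave the following ranges. Clade A members higher were 1 to 2 in kidney, 3 to 6 in lung and 8 to 14 in liver, and lower 9 to 14 in kidney, 0 to 1 in liver and 9 to 15 in small intestine. These shifts followed from the filter, since without either kidney library 1 member, without either lung library 3 and without either liver library 6 no longer met it. The correlation of deviations between libraries of the same replicate number lay between -0.217 and 0.0528 over the 6 pairs of tissues, so the numbers were not taken to pair the samples, although the tissues share mice. With a replicate block all 16 counts of members were unchanged, for example 14 clade A members higher in liver, and 1068 genes in all were called higher there against 1071.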
